A study of Arabidopsis thaliana with 8 samples.

Results

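*MIR845a* (AT4G23387) and *MIR845b* (AT4G23375) are neighbouring miRNA genes on chromosome 4 of *Arabidopsis*, chosen by their measured counts of small RNAs (sRNAs), for the large rise in both *hot3* alleles over WT. They are 2 of 326 annotated miRNA genes and cover 4 of the 1196681 windows of 100 bp in which the reads were counted, and the 32 windows between them were examined as neighbours. The sRNA sequencing covered 4 genotypes with 2 libraries each, 8 in all, from seedlings 18 days old grown with 16 h of light and 8 h of dark. The labels give a growth temperature of 23 °C for all of them, and the paper's methods a slightly lower one. WT was the Col-0 accession, and per the paper the mutants and the transgenic line are in the same accession. *hot3-2* is a SALK line and *hot3-3* a SAIL line, each with a T-DNA insertion in *HOT3*, the gene of the translation initiation factor eIF5B1. *HOT3-EYFP* is the *hot3-2* mutant that carries in addition a transgene of HOT3 fused to EYFP, driven by the *HOT3* promoter. The 2 libraries of a genotype are described as independent replicates, without saying from which step on they were separate, so that *p* values measure the spread between these libraries only.

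A plant miRNA is cut by a Dicer-like protein from the stem of a folded transcript, and one strand of the duplex is loaded into an Argonaute protein, where its bases guide the recognition of complementary RNA. The miR845 family is unusual in that its sequence resembles the 3′ end of the initiator methionine tRNA. LTR retrotransposons start reverse transcription by pairing that tRNA end with a primer-binding site, so that miR845 can pair with the primer-binding sites of many such elements. In *Arabidopsis* the family is best known from pollen, where miR845b is linked to secondary siRNAs from retrotransposons.

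The mature sequences are shown because reads of exactly these lengths make up nearly all of the signal described below. They were read 5′ to 3′ from the RefSeq assembly TAIR10.1, with the seed (bases 2 to 8) in capitals. Mature miR845a lies at chr4:12217457-12217477 on the minus strand and has 21 nt, and mature miR845b lies at chr4:12214086-12214107 on the minus strand and has 22 nt.
miR845a: cGGCUCUGauaccaauugaug
miR845b: uCGCUCUGauaccaaauugaug
The seeds differ in their first base. From base 3 to base 15 the mature forms are identical, a stretch of 13 nt, and miR845b has 1 base more after it.

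The annotated precursors show how the windows relate to the arms of the hairpin, and the mature form is in capitals. *MIR845a* covers chr4:12217406-12217568 (163 nt) and *MIR845b* chr4:12214069-12214167 (99 nt), both on the minus strand and both outside other annotated genes.
MIR845a: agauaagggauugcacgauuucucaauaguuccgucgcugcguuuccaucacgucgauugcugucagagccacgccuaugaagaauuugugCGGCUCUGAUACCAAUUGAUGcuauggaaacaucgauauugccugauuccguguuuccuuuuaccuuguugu
MIR845b: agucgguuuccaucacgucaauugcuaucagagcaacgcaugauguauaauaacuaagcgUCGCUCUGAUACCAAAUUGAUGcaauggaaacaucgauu
Besides the 13 nt inside the mature form, the precursors share 14 nt just after it and 14 nt on the opposite side of the hairpin. The latter lie at bases 42 to 55 of *MIR845a* and 6 to 19 of *MIR845b*. Most of them lie before the stretch opposite the mature form in the predicted fold, which starts at bases 52 and 16. The predicted fold of *MIR845a* had a minimum free energy of -57.8 kcal/mol with 19 of the 21 mature bases paired. That of *MIR845b* had -40.5 kcal/mol with 19 of the 22 mature bases paired.

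The likeness to the initiator tRNA can be read from the sequence. Of 684 annotated tRNA genes, 8 shared 13 nt with miR845a and 12 nt with miR845b, and all 8 were among the 28 genes of tRNA-Met. In each the shared stretch ended at the CCA that is added to the tRNA after transcription. The last 27 bases of one of them (AT1G42120, chr1:15730615-15730686, minus strand), with CCA added and the stretch shared with miR845a in capitals, are shown for comparison.
tRNA-Met: tcccaagatcgaaacttGGCTCTGATACCA
The shared stretch starts at base 2 of miR845a and at base 3 of miR845b. Outside its own gene, neither mature sequence had a match with 0 or 1 mismatches in the nuclear chromosomes.

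The libraries held 6793502 to 8210328 counts of 18 to 26 nt, and levels are given as counts per 1000000 of that total (CPM). rDNA took 44.0 to 44.3% of the counts in WT, 33.7 to 34.0% in *hot3-2*, 40.5 to 40.8% in *hot3-3* and 52.0 to 52.2% in *HOT3-EYFP*. The windows of *HOT3* held 17 to 29 counts in the libraries of WT and of both alleles but 535 and 471 in *HOT3-EYFP*, the line with the transgene.

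*MIR845a* was a gene of modest level in plants with functional HOT3. Its windows held 264 and 241 counts in the WT libraries (38.9 and 33.3 CPM) and 382 and 220 in *HOT3-EYFP* (46.5 and 31.3 CPM). In *hot3-2* they held 25623 and 30214 counts (3656 and 4064 CPM), and in *hot3-3* 22379 and 24042 counts (2954 and 3089 CPM). All 4 libraries of the alleles lay far above the other 4 libraries, which overlapped with each other. The mean level was 3860 ± 288 CPM in *hot3-2* and 3021 ± 95.7 CPM in *hot3-3*, against 36.1 ± 3.96 CPM in WT and 38.9 ± 10.8 CPM in *HOT3-EYFP* (SD, n = 2). Relative to WT the mean was 107-fold in *hot3-2*, 83.8-fold in *hot3-3* and 1.08-fold in *HOT3-EYFP*.

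*MIR845b* was near the limit of detection in plants with functional HOT3. It had 6 and 4 counts in WT (0.883 and 0.552 CPM) and 17 and 5 in *HOT3-EYFP* (2.07 and 0.712 CPM). The 95% Poisson intervals of the WT libraries were 0.324 to 1.92 CPM and 0.150 to 1.41 CPM, and they cover counting error only. The *hot3-2* libraries held 904 and 960 counts (129.0 and 129.1 CPM) and the *hot3-3* libraries 736 and 846 (97.1 and 108.7 CPM). Again the 4 libraries of the alleles stood apart from the other 4, and WT and *HOT3-EYFP* overlapped. The mean level was 129.0 ± 0.0980 CPM in *hot3-2* and 102.9 ± 8.17 CPM in *hot3-3*, against 0.718 ± 0.234 CPM in WT and 1.39 ± 0.961 CPM in *HOT3-EYFP* (SD, n = 2). The SD of *hot3-2* is far below counting error, since the 95% Poisson intervals of its libraries were 120.7 to 137.7 and 121.1 to 137.5 CPM. Relative to WT the mean was 180-fold in *hot3-2*, 143-fold in *hot3-3* and 1.94-fold in *HOT3-EYFP*, on a WT base of 10 counts in all.

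**Figure D1:**
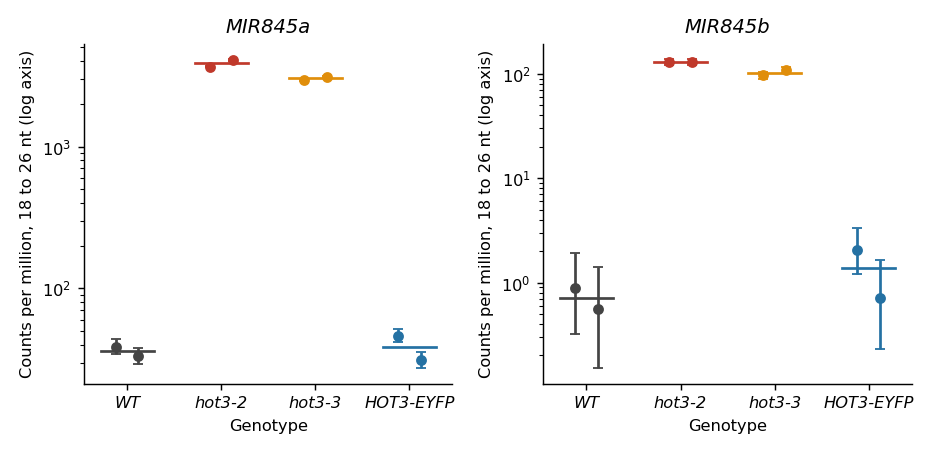
Level of *MIR845a* and *MIR845b* in each of the 8 libraries by genotype, in CPM of reads of 18 to 26 nt on a log axis. Points are libraries, error bars are 95% Poisson intervals and lines are genotype means. The *hot3-2* and *hot3-3* libraries sit at 2954 to 4064 CPM for *MIR845a* and 97.1 to 129.1 CPM for *MIR845b*, and no other library exceeds 46.5 and 2.07 CPM.

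A fit across all windows (edgeR, TMM normalization) gave log2 fold changes against WT of 6.52 (SE 0.27) in *hot3-2* and 6.36 (SE 0.27) in *hot3-3* for *MIR845a*. For *MIR845b* they were 7.24 (SE 0.43) and 7.11 (SE 0.43). These values chose the genes and are given as a description with no test. In the same comparisons, 0.844% and 0.811% of the 53419 windows tested were called higher in *hot3-2* and *hot3-3*, where windows were called at a Benjamini-Hochberg adjusted P under 0.01 with levels differing by 2-fold or more. The comparisons with WT share the WT libraries. In *HOT3-EYFP* against *hot3-2* the fitted log2 fold change was -5.98 for *MIR845a* and -5.83 for *MIR845b*, in a comparison in which 0.702% of windows were called lower. In libraries of whole seedlings, more cells that make a miRNA and more miRNA per cell cannot be told apart.

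The contrast of the transgene line with WT was not itself used to choose the genes and was tested. The WT libraries did enter the choice, however, so that the test is not independent of it. *MIR845b* had enough counts for a test (10 or more in 2 or more libraries) only through the libraries of the alleles. No conclusion is therefore drawn from its test. Neither gene was called by edgeR's quasi-likelihood test, where 0.588% of windows were called in either direction. *MIR845a* differed by 0.54 on the log2 scale (SE 0.21, adjusted p = 0.506) and *MIR845b* by 1.40 (SE 0.51, adjusted p = 0.415). The unadjusted p was under 0.05 for 1 of the 2, *MIR845b*, and DESeq2 called 0 of them. Both values rest on the first *HOT3-EYFP* library, which was the higher one for both genes. Without it the log2 differences were 0.22 and 0.41, and without the second one they were 0.78 and 1.92. With the total count as library size the difference of *MIR845a* was 0.11 on the log2 scale. A residual excess of either miRNA in *HOT3-EYFP* was therefore not resolved by 2 libraries.

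The alleles were likewise compared with each other, although the libraries of both had entered the choice. By CPM the order of the genotypes was the same for both genes, which ran from *hot3-2* through *hot3-3* and *HOT3-EYFP* down to WT. The libraries of *hot3-3* lay below those of *hot3-2* for both genes without overlap, but the fitted difference was small. It was -0.16 on the log2 scale (SE 0.21, adjusted p = 1.0, edgeR) for *MIR845a* and -0.13 (SE 0.29, adjusted p = 1.0, edgeR) for *MIR845b*. Neither was called, as for nearly all windows, of which 0.116% were called, and the unadjusted p was under 0.05 for 0 of the 2, with 0 called by DESeq2. Neighbours in the order that did not differ beyond their spread were thus *HOT3-EYFP* and WT by CPM, and for *MIR845a* also by the fit. By the fit alone they were *hot3-3* and *hot3-2*.

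The relation between the genes was examined because a ratio within a library does not depend on library size. In WT there were 44.0 and 60.3 counts of *MIR845a* for each count of *MIR845b*, and in *HOT3-EYFP* 22.5 and 44.0. The *hot3-2* libraries had ratios of 28.3 and 31.5, and the *hot3-3* libraries 30.4 and 28.4. *MIR845b* made up 3.41% (95% exact binomial interval 3.19 to 3.63) and 3.08% (2.89 to 3.28) of the reads of both genes in *hot3-2*, and 3.18% (2.96 to 3.42) and 3.399% (3.18 to 3.63) in *hot3-3*. Its share was 2.22% (0.820 to 4.77) and 1.63% (0.447 to 4.13) in WT. The intervals cover counting error only, and those of WT overlapped those of the alleles. The ratio was not tested. Over the 4 libraries of the alleles it ranged from 28.3 to 31.5.

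The lengths of the reads matched the annotated mature forms. At *MIR845a*, 21-nt reads made up 95.8 and 94.6% of the counts in WT and 96.6 and 94.5% in the *HOT3-EYFP* line. Their share was 96.4 and 97.0% in the *hot3-2* libraries and 96.2 and 96.7% in the *hot3-3* libraries. Reads of 20 nt were the next class, with 2.84% for *hot3-2*, 3.10% for *hot3-3*, 3.16% for *HOT3-EYFP* and 3.76% for WT. The shares of replicates lay as far apart as those of genotypes. No read of 23, 25 or 26 nt was counted at *MIR845a* in any library.

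At *MIR845b* the main class was 22 nt. It held all 10 counts in WT, 14 of 17 and 5 of 5 in *HOT3-EYFP*, 96.1 and 95.1% in *hot3-2* and 95.7 and 97.2% in *hot3-3*. Reads of 21 nt made up 3.38% in *hot3-2* and 3.03% in *hot3-3*, with 63 and 48 counts against 0 in WT, which is at least 20.4-fold and 14.6-fold higher than the limit of 3 counts over the WT libraries. In the same way the 22-nt reads of *MIR845a*, 76 in *hot3-2* and 64 in *hot3-3* against 0 in WT, were at least 24.6-fold and 19.5-fold higher. Taken alone, the main classes rose by as much as the genes did, with 21-nt reads of *MIR845a* at 109-fold and 85.1-fold of WT in *hot3-2* and *hot3-3* and 22-nt reads of *MIR845b* at 173-fold and 139-fold, by CPM over both libraries.

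**Figure D2:**
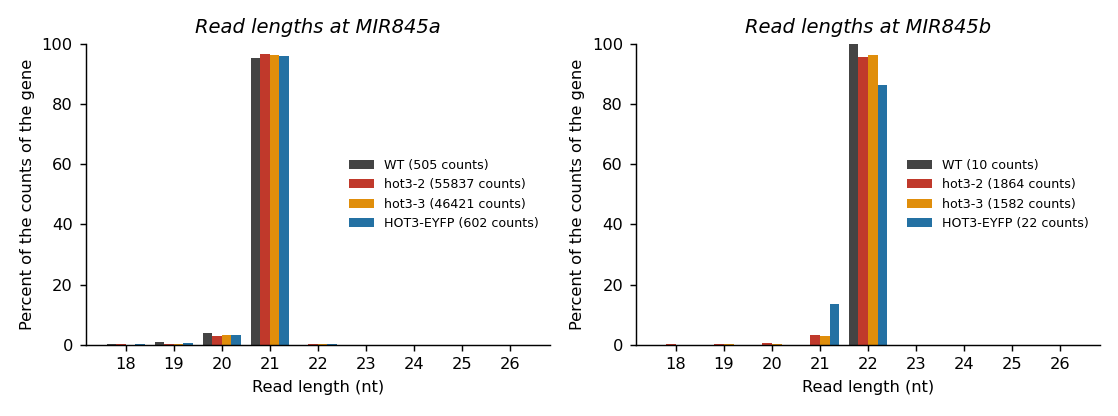
Percent of the counts of *MIR845a* and *MIR845b* at each read length from 18 to 26 nt, with bars for the 4 genotypes (2 libraries summed, number of counts in the key). Reads of 21 nt make up 95.2 to 96.7% at *MIR845a*, and reads of 22 nt 86.4 to 100% at *MIR845b*, where WT has 10 counts and *HOT3-EYFP* 22.

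Within each gene the reads fell almost wholly in 1 window. How a read that spans a border of windows was placed is not given in the sources used here, and the positions below are given by the lowest coordinate, which for these genes on the minus strand is the 3′ end of the miRNA. The window at chr4:12217400-12217499 held 103362 of the 103365 counts of *MIR845a*, and the other 3 fell in the next window, in the first *hot3-3* library. In *MIR845a* the opposite arm of the predicted stem (chr4:12217498-12217517) has its lowest coordinate in the same window as the mature form, so that reads of the arms cannot be separated there. In *MIR845b* the arms lie further apart. The mature form spans a border and has its lowest coordinate in the window at chr4:12214000-12214099, which held all 3478 counts, whereas the opposite arm (chr4:12214132-12214152) lies wholly in the next window, which held 0 counts in all 8 libraries. A count of 0 allows a share of up to 0.0863% of the reads of the gene.

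The region between the genes was nearly silent. It spans 3200 bp and contains AT4G23380 (chr4:12214667-12216333, minus strand), annotated as a putative NEP-interacting protein with a DUF239 domain. Over 8 libraries it held 4 counts, 1 in each of 4 windows, of which 3 were in the alleles and 1 in plants with functional HOT3, while the windows of the genes on both sides held 106843. None of the 32 windows had enough counts to be tested (10 or more in 2 or more libraries). The mean of log2(CPM + 0.5) over the region differed by 0.15 between the alleles and the other libraries (-0.76 against -0.91, two-sided exact permutation test, p = 0.714, n = 4 and 4, smallest possible p 0.0286). The test treats libraries of the same genotype as independent. With 4 counts in all it could hardly show a difference, so that no conclusion is drawn from it. The rise was thus seen at both miRNA genes and not as reads spread over the 3238 bp that separate them.

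**Figure D3:**
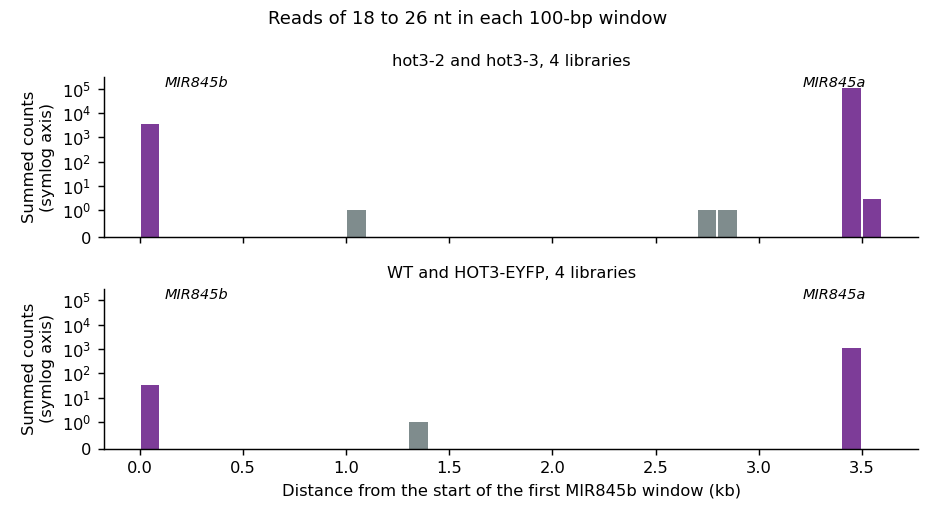
Counts of 18 to 26 nt in each 100-bp window from *MIR845b* to *MIR845a*, summed over the 4 libraries of *hot3-2* and *hot3-3* (top) and the 4 libraries of WT and *HOT3-EYFP* (bottom), against distance in kb, with a symlog count axis (linear below 1). Purple bars are windows of the 2 genes and grey bars the windows between them, which hold 3 counts in the top panel and 1 in the bottom panel.

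Among miRNA genes, both ranked higher in the libraries of the alleles than in the others. Their choice for a rise in the alleles makes this nearly certain, and the ranks are given as a description. Counting for each gene its highest window at 21 nt, *MIR845a* ranked 45 and 50 of 326 in WT and 33 and 44 in *HOT3-EYFP*. It ranked 2 and 3 in *hot3-2*, and 3 and 1 in *hot3-3*. Its window held 0.107 and 0.0906% of all 21-nt reads in windows of miRNA genes in WT, 10.04 and 11.1% in *hot3-2* and 9.71 and 10.2% in *hot3-3*. At 22 nt *MIR845b* ranked 99 and 113 in WT and 67 and 94 in *HOT3-EYFP*, against 6 and 6 in *hot3-2* and 6 and 5 in *hot3-3*. Its window held 0.0310 and 0.0194% of the 22-nt reads of miRNA windows in WT, 4.24 and 4.30% in the *hot3-2* libraries and 3.75 and 4.24% in the *hot3-3* libraries.

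The other miRNA genes were called in both directions. Of 324 genes, 248 had enough counts to be tested. In *hot3-2*, 25 were called higher and 21 lower than WT, where 0.844% of all windows were called higher and 1.12% lower. The median log2 fold change was -0.02 against 0.03 over all windows. In *hot3-3*, 20 were higher and 16 lower, where 0.811% of all windows were higher and 0.824% lower. The median was -0.06 against 0.03. With total counts as library size, 32 were higher and 10 lower in *hot3-2*, and the split in *hot3-3* was again 20 and 16. In *HOT3-EYFP* against WT 1 was higher and 6 were lower, where 0.588% of all windows were called in either direction. In *hot3-3* against *hot3-2* 1 was called, as higher, where 0.116% of all windows were called. Because miR845b has 22 nt, the 45 genes with a 22-nt mature form were also counted alone. Of the 38 that were tested, 3 were higher and 2 lower in *hot3-2*, and 2 were higher and 1 lower in *hot3-3*. Of the 210 tested without such a form, 22 were higher and 19 lower in *hot3-2*, and 18 were higher and 15 lower in *hot3-3*. The shares over all windows given above for each allele apply to both lists, and the difference between these lists was not tested.

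By fitted log2 fold change over 250 miRNA genes, *MIR845b* had rank 3 in both alleles and *MIR845a* rank 5 in *hot3-2* and rank 6 in *hot3-3*. The genes ranked above *MIR845a*, 3 in *hot3-2* and 4 in *hot3-3* besides *MIR845b*, had 0 counts in both WT libraries, had standard errors of 1.37 or more, and none of them was called. The called gene with the next largest rise, *MIR859*, named after its values were seen, had log2 fold changes of 4.50 (SE 0.42) in *hot3-2* and 4.50 (SE 0.43) in *hot3-3*, on 10 counts in WT.

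**Figure D4:**
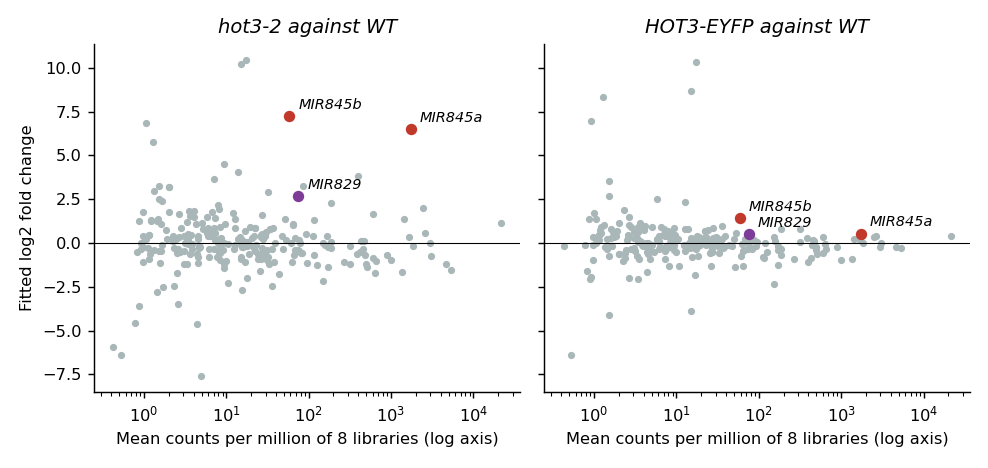
Fitted log2 fold change of 250 miRNA genes against their mean CPM over 8 libraries (log axis), for *hot3-2* against WT (left) and *HOT3-EYFP* against WT (right). Red points are *MIR845a* and *MIR845b*, the purple point is *MIR829* and grey points are the other genes. On the left *MIR845a* lies at 6.52 and *MIR845b* at 7.24, and on the right they lie at 0.54 and 1.40.

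The genes whose levels followed the pair most closely were listed by the Pearson r of log2(CPM + 1) with the mean of *MIR845a* and *MIR845b* over 8 libraries. This is a description among 248 genes, and all points share the same libraries and totals. The 5 highest were *MIR829* (r = 0.997), *MIR5019* (0.993), *MIR5028* (0.993), *MIR158b* (0.991) and *MIR158a* (0.989). *MIR829* had 18.7 and 19.5 CPM in WT and 20.8 and 19.4 CPM in the *HOT3-EYFP* line, against 146.7 and 138.9 CPM in *hot3-2* libraries and 123.9 and 112.9 CPM in *hot3-3* libraries. As for *MIR845a* and *MIR845b*, the 4 libraries of the alleles were all above the other 4, and *hot3-3* was below *hot3-2*.

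*MIR5019* had 0 CPM in the 4 libraries with functional HOT3 and 1.67 to 2.29 in the alleles. *MIR5028* had 1.24 to 2.13 CPM with functional HOT3 and 21.5 to 34.0 in the alleles. *MIR158b* went from 57.4 to 77.4 CPM with functional HOT3 to 276 to 340 in the alleles. *MIR158a* had 12641 to 12837 CPM with functional HOT3 and 27102 to 33917 in the alleles. In all 5 genes the alleles did not overlap with the other libraries, which the choice by likeness makes nearly certain.

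**Figure D5:**
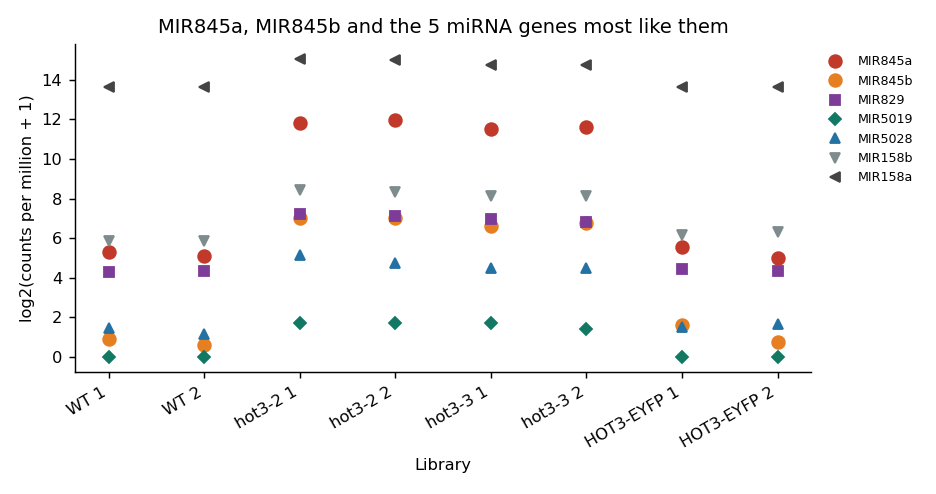
log2(CPM + 1) of *MIR845a*, *MIR845b* and the 5 miRNA genes most like them in each of the 8 libraries. In every one of the 7 genes the 4 libraries of *hot3-2* and *hot3-3* lie above those of WT and *HOT3-EYFP*, and *MIR845a* passes from 31.3 to 46.5 CPM to 2954 to 4064 CPM.

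The gene at the head of that list also has the mature form closest to miR845 in sequence, which the choice by level did not use. Its level counts all reads of 18 to 26 nt at the gene, not only those of that form. Each of the 426 other annotated mature forms was searched for the longest stretch shared with miR845a and miR845b. One form shared at least 10 bases with miR845a, and it was miR829-3p.1 (chr1:11834094-11834117, minus strand, 24 nt), with 13 bases. With miR845b the same form shared 15 bases, and 1 further form shared 10. The stretch shared with each is shown in capitals.
miR829-3p.1 and miR845a: aGCUCUGAUACCAAaugauggaau
miR829-3p.1 and miR845b: aGCUCUGAUACCAAAUgauggaau
The next longest stretch shared with miR845a, among the mature forms of all other genes, was 7 bases. Of the CCA end of tRNA-Met, miR829-3p.1 contains 12 bases, as miR845b does. The forms of *MIR158a* and *MIR158b* shared 6 bases with miR845b.

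Complementary sites in the genome were examined because miR845 is known for pairing with retrotransposon primer-binding sites. Allowing 4 mismatches on either strand, 88 matches of miR845a and 57 of miR845b lay outside the genes themselves. A match of each overlapped at 1 place, which leaves 144 sites. Of these 40 were in annotated genes and 17 of these in pseudogenes. Matches of miR845a had 2 mismatches in 3 cases, 3 in 20 and 4 in 65, and those of miR845b had 2 in 23 cases, 3 in 16 and 4 in 18. The complement of the bases shared with tRNA-Met, TGGTATCAGAGC, was contained in 60 of the 88 matches of miR845a and 41 of the 57 matches of miR845b. It occurs 429 times on both strands of the nuclear chromosomes. The sequence found most often, 22 times with 2 mismatches to miR845b, and the sequence found 2 times with 2 mismatches to miR845a are shown with these 12 bases in capitals, from chr1:13514800-13514821 and chr3:12033572-12033592, both on the minus strand.
Site of miR845b: tttcaattTGGTATCAGAGCga
Site of miR845a: cttcaatTGGTATCAGAGCgg
Transposable elements are not labelled in the annotation used here, so that the sites were not assigned to elements.

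Few of the windows at these sites held enough sRNAs to be tested. Of 456 windows that overlap or adjoin a site, 9 were tested at 21 nt, 15 at 22 nt and 34 at 24 nt. At 21 nt 2 were called higher and 0 lower in each allele against WT, where 4.31% (*hot3-2*) and 4.01% (*hot3-3*) of all windows were called higher and 4.20% and 2.72% lower. At 22 nt 1 was called higher and 0 lower in each allele, with 2.12% and 2.02% of all windows higher and 3.05% and 1.71% lower. At 24 nt 1 was called higher and 0 lower in each allele, with 1.05% and 1.10% of all windows higher and 0.744% and 0.628% lower. In *HOT3-EYFP* against WT edgeR and DESeq2 called 0 at each of the 3 lengths, with 1, 1 and 2 windows at an unadjusted p under 0.05 by edgeR, where 1.16% (21 nt), 0.977% (22 nt) and 0.748% (24 nt) of all windows were called in either direction.

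All of these called windows belong to *MIR829*. A site of miR845a with 3 mismatches lies at chr1:11834098-11834118 on the plus strand, and the gene (chr1:11834022-11834226) is on the minus strand. The site is therefore the complement of most of miR829-3p.1 (chr1:11834094-11834117), the form that shares 13 bases with miR845a. The window at chr1:11834000-11834099, which holds the lowest coordinate of both 3′ forms of miR829, held 95 and 109 counts of 21 nt in the *hot3-2* libraries and 129 and 107 in the *hot3-3* libraries, against 14 and 11 in WT and 21 and 16 in the *HOT3-EYFP* line. At 22 nt it held 134 and 126 counts in the *hot3-2* libraries and 85 and 69 in the *hot3-3* libraries, against 7 and 11 in WT and 9 and 11 in the *HOT3-EYFP* line. At 24 nt, the length of miR829-3p.1, it held 131 and 137 counts in the *hot3-2* libraries and 137 and 126 in the *hot3-3* libraries, against 21 and 21 in WT and 25 and 31 in the *HOT3-EYFP* line.

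At each of the 3 lengths the libraries of the alleles were all above those of WT and *HOT3-EYFP*. The windows of *MIR829* are shown because they were called in both alleles, and the gene also headed the list by likeness. Their fold changes are therefore given as a description with no test. At 24 nt the log2 fold change was 2.61 (SE 0.24) in *hot3-2* and 2.69 (SE 0.24) in *hot3-3*. At 22 nt it was 3.49 (SE 0.33) and 2.89 (SE 0.33), and at 21 nt 2.77 (SE 0.30) and 3.05 (SE 0.30). The next window, which holds the lowest coordinate of the 5′ form, went at 21 nt from 54 and 49 counts in WT to 400 and 379 in *hot3-2* and 299 and 327 in *hot3-3*, with 56 and 46 in *HOT3-EYFP*.

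Without the windows around that site, edgeR with TMM called 0 of the remaining windows in either allele at 21, 22 or 24 nt, and DESeq2 called 0. Other settings called some of them at 24 nt, all of them lower. Counts outside rDNA and organelles as library size called 2 in *hot3-2* and 3 in *hot3-3*, total counts as library size called 0 and 2, no filter on low counts called 1 and 1, and a call at an adjusted P of 0.05 with no limit on the fold gave 2 and 2 (edgeR). At an unadjusted p under 0.05 there were 1, 0 and 8 windows at 21, 22 and 24 nt in *hot3-2*, of 7, 14 and 32 tested. In *hot3-3* there were 0, 3 and 5. Of the 8 windows at 24 nt in *hot3-2* 2 were higher and 6 lower, and of the 5 in *hot3-3* 0 were higher and 5 lower. Summed over the 452 windows, 21-nt reads came to 30.1 and 28.5 CPM for *hot3-2*, 25.3 and 26.1 CPM for *hot3-3*, 25.8 and 21.2 CPM for WT and 18.3 and 17.1 CPM for *HOT3-EYFP*. The sums of 22-nt reads were 61.2 and 53.9 CPM for *hot3-2*, 47.2 and 43.4 CPM for *hot3-3*, 47.0 and 47.5 CPM for WT and 34.3 and 34.7 CPM for *HOT3-EYFP*. The sums of 24-nt reads were 184.5 and 190.4 CPM for *hot3-2*, 167.4 and 157.3 CPM for *hot3-3*, 208.6 and 204.2 CPM for WT and 139.2 and 144.3 CPM for *HOT3-EYFP*. The *HOT3-EYFP* libraries, which had the highest share of rDNA reads, were the lowest at each of the 3 lengths, and the part of rDNA in these sums was not tested.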

How the data were processed

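The authors size-selected RNA between 18 and 40 nt on a gel, removed adaptors with cutadapt and ran their own pipeline, pRNASeqTools. Per the labels, the processing notes name Bowtie, featureCounts 2.0.3, cutadapt 4.2 and DESeq2 1.34.0, and the genome alignment, including the treatment of reads with several matches, is not given in the sources used here. The deposited values are raw counts of reads of each length from 18 to 26 nt in 100-bp windows, without strand, and their windows matched the nuclear chromosome lengths of TAIR10.1.

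Reads were given to a miRNA gene by summing the windows it overlaps. Genes and windows that reached 10 counts in 2 or more libraries were fitted together with edgeR 4.0.16 (quasi-likelihood test, TMM, genotype as the factor, all 8 libraries, R 4.3.3), with Benjamini-Hochberg adjustment over all of them. SE is the absolute log2 fold change divided by the square root of F. Tests ran on 18 to 26 nt and on 21, 22 and 24 nt, and the procedure was tested on simulated data. Alternatives were DESeq2 1.42.0, other library sizes, filters, limits of a call and length classes, a replicate block and leaving out each library. Precursors were folded with RNAfold 2.7.2.

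*MIR845a*, *MIR845b* and the lists were chosen with earlier results of these data known. The text names both genes, the 5 miRNA genes with the highest r to them, the site windows with the 3 largest rises and 3 largest falls among those called the same way in both alleles (4 rises over the 3 lengths, all given, and 0 falls), and *HOT3*. Leaving out the windows around the site in *MIR829*, also under the other settings, and the search of mature forms for shared stretches were chosen after seeing the data. Replicates were not copies of one library, since their counts differed by 4.49 to 7.20 times the sampling variance.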

Additional observations from a re-analysis of the deposited data

How the results depend on the processing

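The fitted fold changes of *MIR845a* and *MIR845b* kept their direction, and the tested ones stayed uncalled, under every alternative run. With total counts as library size, *MIR845a* moved to 6.74 in *hot3-2* against WT and -6.63 in *HOT3-EYFP* against *hot3-2* (log2). Leaving out 1 library gave ranges for *MIR845a* of 6.41 to 6.62 in *hot3-2* and 6.26 to 6.46 in *hot3-3* against WT, and for *MIR845b* of 6.94 to 7.58 and 6.82 to 7.46. For other miRNA genes, an adjusted P under 0.05 with no fold limit called 39 higher and 42 lower in *hot3-2* and 38 and 43 in *hot3-3*, and total counts as library size called 32 higher and 10 lower in *hot3-2*, with the median of all windows shifted by 0.22 on the log2 scale (by -0.43 in *HOT3-EYFP* against WT and -0.65 against *hot3-2*). For site windows at 24 nt, counts outside rDNA and organelles as library size called 3 in *hot3-2* and 4 in *hot3-3*, total counts called 3 in *hot3-3*, no filter called 2 in each, and an adjusted P under 0.05 called 4 in each. Without the windows around the site in *MIR829*, 0 were called at 21 and 22 nt under every setting run. At 24 nt 0 were called with the settings of the report, and those 4 settings called 2, 0, 1 and 2 in *hot3-2* and 3, 2, 1 and 2 in *hot3-3*, all lower. The 21-nt share of *MIR845a* in WT was 96.2% of reads of 20 to 24 nt. The level of the region between the genes changed sign at 24 nt alone (-0.0086, exact permutation p = 1.0). The causes of these moves were not tested. Same-numbered replicates did not deviate together (r from -0.011 to 0.023), and with a replicate block the differences of *HOT3-EYFP* from WT were 0.53 and 1.39, both uncalled, and 23 and 20 other miRNA genes were called in *hot3-2*. With 4 and 6 counts in WT, depth limits the fold changes of *MIR845b* against WT.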
